A study of Mus musculus with 11 samples.

Results

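Glia of the trigeminal ganglion, the sensory ganglion of the face, were followed through 8 marker genes in mouse embryos at embryonic day 13.5: Gja1, Slc1a3, Sox10, Erbb3, Pmp22, Mbp, Fabp7 and S100b. Every probe set annotated to 1 of these genes was taken from 2 types of Affymetrix array with different probe sets, U74Av2 and U74Bv2, which gave 15 probe sets of all 8 genes, out of 24899 probe sets and 13675 named genes in the series. Of the 15, 11 probe sets of 7 genes were bright enough to be tested. S100b, with its single probe set, was not among them.

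The arrays compared ganglia labelled Brn3a knockout, Brn3a heterozygote and wild-type. Brn3a is a POU-domain transcription factor of sensory neurons, encoded by Pou4f1. U74Av2 had 2 arrays of each genotype, and U74Bv2 had 2 knockout arrays, 2 heterozygote arrays and 1 wild-type array. Each array held RNA pooled by genotype from about 10 to 12 ganglia. The labels used here do not state allele, strain or sex, nor whether the same pools went on both array types. The p-values therefore measure the spread between these pools and hybridisations.

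Neural crest cells of the ganglion give rise to satellite glia, which wrap the neuronal cell bodies, and to Schwann cell precursors, which accompany the axons and later form myelin. The transcription factor Sox10 is required for this lineage and keeps the neuregulin receptor Erbb3 expressed, and neuregulin from axons keeps the precursors alive. Neurons of the ganglion are the cells that use Brn3a, so the comparison asks whether glial transcripts differ where the neurons beside them lack it. The ganglia were not sorted, so a higher signal of a gene can come from more cells of a type or from more RNA per cell, which cannot be told apart.

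The values are MAS5 signals, 1 per probe set on a linear scale. Pou4f1 had signals of 549.8 and 904.3 in knockout, 2196 and 3570.1 in heterozygote and 3313.1 in wild-type ganglia on U74Bv2. Both knockout arrays were thus below all others, while heterozygote and wild-type were not separated. U74Av2 had no probe set named Pou4f1, so its labels were not checked this way. Arrays numbered 1 and 2 in the labels differed from each other on U74Av2. The geometric mean of 3 probe sets for 18S ribosomal RNA was 12803 in knockout, 6745 in heterozygote and 5173 in wild-type array 1, and 974, 518 and 511 in the arrays numbered 2. Within each number it was also highest in knockout, as the Gja1 signal was, and its part in the results was not tested. Several glial genes also differed by array number, so their values are given below in the order number 1, number 2.

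Gja1 and Slc1a3 were higher in knockout ganglia than in both other genotypes, by 3.72-fold and 2.76-fold, and both passed the test when heterozygote and wild-type arrays were pooled as 1 group. The call of Slc1a3 depends on a filter that its probe set passed only through the knockout arrays, and with no filter its limma adjusted p was 0.0687. None of the other 5 tested genes passed. The region just before the start of each gene that passed is shown from RefSeq (GRCm38.p6), because these are the members that were higher together. The windows are the 250 bases before the annotated start, at chr10:56377050-56377299 on the + strand for Gja1 and chr15:8710808-8711057 on the - strand for Slc1a3, and capitals mark the only match to a searched motif.
Gja1: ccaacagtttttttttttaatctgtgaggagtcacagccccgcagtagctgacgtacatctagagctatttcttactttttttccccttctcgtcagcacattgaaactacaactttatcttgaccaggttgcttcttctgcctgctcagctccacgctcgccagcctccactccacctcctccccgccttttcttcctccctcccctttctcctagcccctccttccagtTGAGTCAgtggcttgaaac
Slc1a3: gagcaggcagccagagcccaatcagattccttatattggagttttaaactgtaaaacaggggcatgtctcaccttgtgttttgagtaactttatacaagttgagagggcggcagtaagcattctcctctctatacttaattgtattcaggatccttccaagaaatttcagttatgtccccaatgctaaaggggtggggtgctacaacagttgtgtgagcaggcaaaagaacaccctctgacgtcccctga

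A set of 5 motifs was searched on both strands in these windows. ATTAAT and TAATTA are AT-rich cores of POU and homeodomain factors and can overlap each other, ACAAAG and ACAATG are core forms bound by SOX proteins, and TGAGTCA is the AP-1 motif. The Gja1 window held TGAGTCA once, between 19 and 13 bases before the start, a motif found in 4.46% of 32851 windows of this length. Neither window held ATTAAT (4.39% of windows), TAATTA (4.84%), ACAAAG (16.5%) or ACAATG (10.7%). The table held windows for 5 of the 8 genes, with 8 windows in all, and no other window of these genes matched. These are letter matches only.

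Gja1 encodes connexin 43, the gap junction protein that couples astrocytes and satellite glia and that connective tissue cells also carry. Its brighter probe set had signals of 3210.5 and 5789.5 in knockout ganglia, 874 and 1381.2 in heterozygotes and 994.3 and 1327 in wild-type ganglia. Both knockout arrays lay far above all others, and heterozygote and wild-type arrays overlapped. Within number 1 the knockout signal was 3.23 times that of wild-type and 3.67 times that of the heterozygote, and within number 2 these ratios were 4.36 and 4.19. The rise held within both numbers. Against heterozygote and wild-type arrays together the log2 difference was 1.89 ± 0.28 SE, with a 95% interval of 1.25 to 2.54 (limma adjusted p = 0.0237). This was the difference of rank 12 from the top among 7453 tested probe sets.

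Against wild-type alone the Gja1 difference was 1.86 ± 0.36 SE (limma adjusted p = 0.186), and against heterozygotes alone it was 1.92 ± 0.36 SE (limma adjusted p = 0.150). The size was thus nearly equal against either genotype, and neither comparison passed over all probe sets. Heterozygotes minus wild-type gave -0.06 ± 0.36 SE. Leaving out knockout array 2, heterozygote array 1 or wild-type array 1 brought the adjusted p of the pooled comparison to 0.133, 0.0645 and 0.0742 (limma), with differences of 1.47, 1.78 and 1.84.

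The dimmer Gja1 probe set was of a relaxed design, and the brighter probe set was of a type that can match related transcripts. The dimmer probe set read 201.1 and 473.6 in knockout, 85.6 and 184.2 in heterozygote and 53.3 and 320.1 in wild-type ganglia. The knockout was highest within each number, but the groups overlapped, since wild-type array 2 lay above knockout array 1. Its log2 difference from the other genotypes was 0.96 ± 0.52 SE (limma adjusted p = 0.823).

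Slc1a3 encodes the glutamate transporter GLAST of astrocytes, radial glia and satellite glia. Its brighter probe set, on U74Bv2, had signals of 347.3 and 486.6 in knockout ganglia, 85.9 and 154.5 in heterozygotes and 118.5 in the wild-type array. Both knockout arrays were above all others. The knockout signal was 4.04 and 3.15 times that of the heterozygote within numbers 1 and 2, and 2.93 times that of wild-type within number 1. The log2 difference from the other genotypes was 1.47 ± 0.27 SE, with a 95% interval of 0.85 to 2.08 (limma adjusted p = 0.0218, rank 13 from the top of 7446 probe sets).

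Slc1a3 was a dim probe set, and it passed the filter on low signals only through the knockout arrays. Its mean log2 value was 7.97 over all arrays but 7.38 over heterozygote and wild-type arrays, under the filter value of 7.79. With no filter the difference stayed 1.47 and the limma adjusted p was 0.0687. With a pseudocount 4 times as large the difference was 0.95 (limma adjusted p = 0.0164). Against heterozygotes alone the difference was 1.47 ± 0.32 SE (limma adjusted p = 0.0698) and against the single wild-type array 1.46 ± 0.40 SE (limma adjusted p = 0.173). Without heterozygote array 1 or without the wild-type array the adjusted p of the pooled comparison was 0.0751 and 0.0615 (limma), and without either knockout array the probe set fell below the filter.

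A further Slc1a3 probe set was too dim to be tested. It read 48.5 and 57.5 in knockout, 17.2 and 22 in heterozygote and 16.8 in wild-type ganglia, with the knockout arrays again above all others. Detection calls were not used here, so signals this low cannot be called present or absent.

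**Figure D1:**
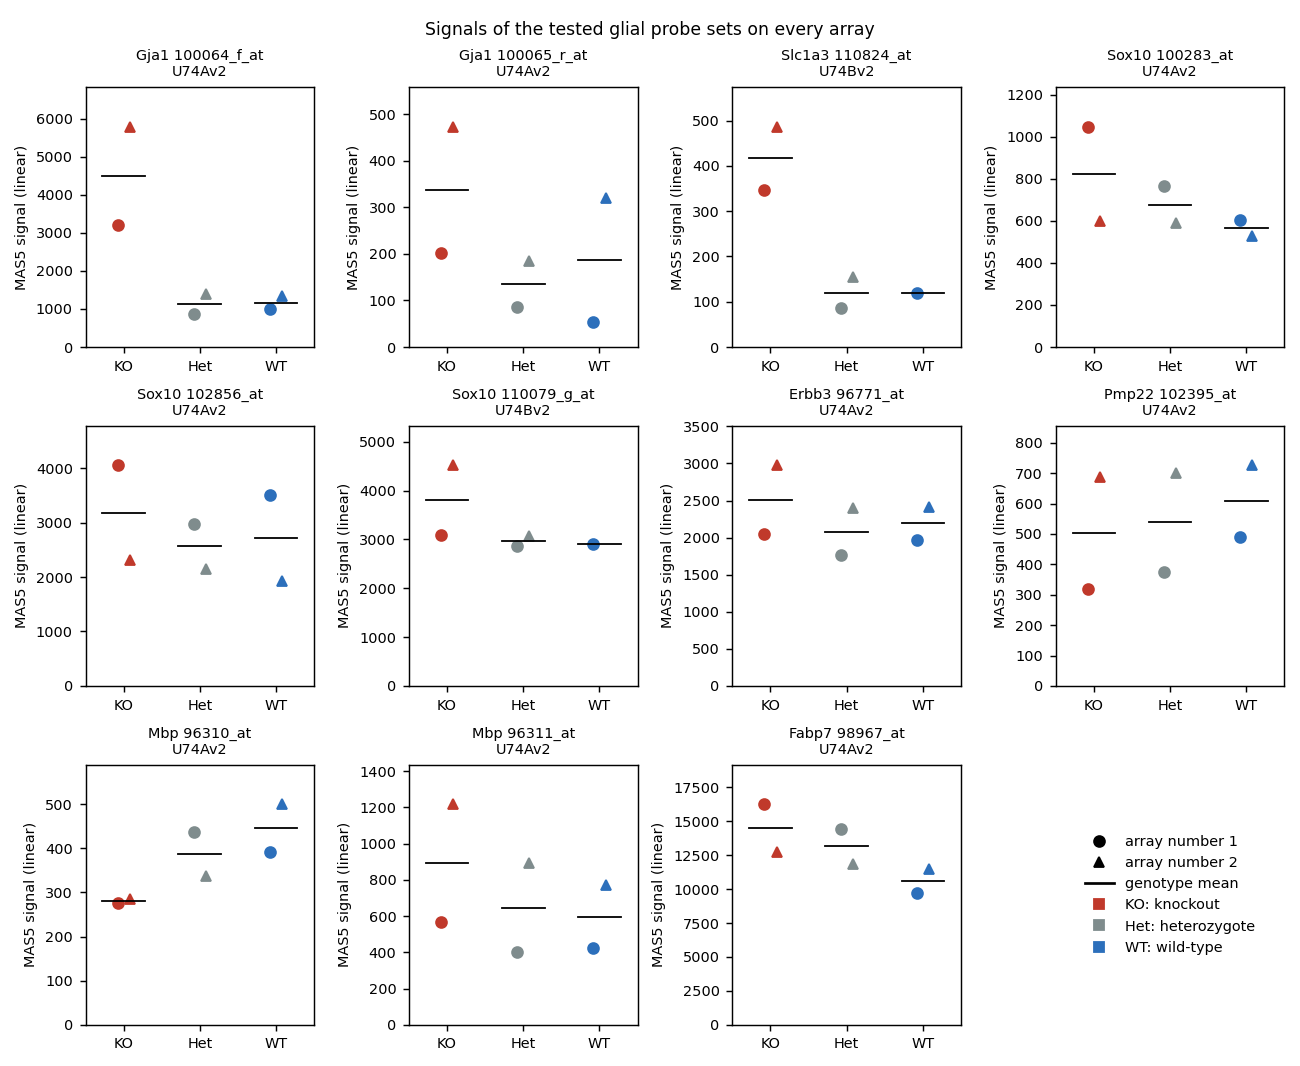
MAS5 signal (linear axis from 0) of the 11 tested glial probe sets on every array, with knockout, heterozygote and wild-type from left to right; circles are arrays numbered 1, triangles arrays numbered 2, and bars genotype means. The brighter Gja1 probe set and Slc1a3 stand apart in knockout, while Pmp22, Sox10 on U74Av2 and the brighter Mbp probe set follow the array number in every genotype.

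Sox10, the transcription factor that defines the peripheral glial lineage, did not pass on any of its 3 probe sets. The brighter on U74Av2 had signals of 4050.6 and 2320.9 in knockout, 2968.9 and 2156.6 in heterozygote and 3510.4 and 1931.7 in wild-type ganglia. The groups overlapped, and each number 2 array was lower than its number 1 counterpart. Its log2 difference from the other genotypes was 0.25 ± 0.30 SE, with a 95% interval of -0.44 to 0.94 (limma adjusted p = 1.00).

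The dimmer U74Av2 probe set of Sox10 read 1048.4 and 600.6 in knockout, 764.7 and 589 in heterozygote and 603.4 and 530.2 in wild-type ganglia, a difference of 0.34 ± 0.24 SE (interval -0.22 to 0.91, limma adjusted p = 0.924). The Sox10 probe set of U74Bv2 read 3081.7 and 4516.9 in knockout, 2863.2 and 3062.8 in heterozygote and 2904.4 in wild-type ganglia. Here both knockout arrays lay above the others, array 1 only just. The difference was 0.34 ± 0.17 SE (interval -0.05 to 0.73, limma adjusted p = 0.499). All 3 Sox10 differences were thus positive, and all 3 intervals included 0. Whether they differed from those of Gja1 or Slc1a3 was not tested.

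Erbb3, the receptor through which neuregulin acts on Schwann cell precursors, had signals of 2050.1 and 2972.9 in knockout, 1760 and 2396.1 in heterozygote and 1970.9 and 2413.6 in wild-type ganglia. The knockout was the highest genotype within each number, by ratios to wild-type of 1.04 and 1.23, and the groups overlapped. The log2 difference was 0.22 ± 0.21 SE (interval -0.27 to 0.71, limma adjusted p = 0.991). A further Erbb3 probe set was not tested, with signals between 12.7 and 24.7 on all arrays.

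Fabp7, the brain-type fatty acid binding protein of radial glia, satellite glia and early Schwann cells, was the brightest member. It read 16258.1 and 12753.4 in knockout, 14450.2 and 11880.1 in heterozygote and 9735.9 and 11460.1 in wild-type ganglia. Both knockout arrays were above both wild-type arrays, and 1 heterozygote array lay between the knockout arrays and 1 below them. The difference was 0.45 ± 0.23 SE from wild-type (limma adjusted p = 1.00) and 0.14 ± 0.23 SE from heterozygotes (limma adjusted p = 1.00). Against both together it was 0.29 ± 0.21 SE, with an interval of -0.18 to 0.76.

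Myelin genes gave no common direction. Pmp22, a compact myelin protein of Schwann cells, had signals of 319.9 and 686.9 in knockout, 375.2 and 700.8 in heterozygote and 491.5 and 725.6 in wild-type ganglia. It was lowest in knockout within each number, by little in number 2, and the groups overlapped widely. The difference from the other genotypes was -0.21 ± 0.34 SE (interval -0.99 to 0.57, limma adjusted p = 1.00). A further Pmp22 probe set lay between 6.5 and 13.7 on all arrays and was not tested.

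The 2 probe sets of Mbp, myelin basic protein, went opposite ways. The dimmer Mbp probe set had signals of 276.5 and 284.3 in knockout, 436.7 and 338.2 in heterozygote and 391.5 and 499.7 in wild-type ganglia, so that both knockout arrays lay below all others. The brighter Mbp probe set had 566.4 and 1217.2 in knockout, 403.7 and 890.9 in heterozygote and 423.3 and 770.7 in wild-type ganglia, so that the knockout was highest within each number while the groups overlapped. The log2 differences from the other genotypes were -0.49 ± 0.20 SE for the dimmer (unadjusted p = 0.0369, limma adjusted p = 0.543) and 0.47 ± 0.39 SE for the brighter (limma adjusted p = 0.971). Neither passed, and their difference was not tested. The Mbp locus also makes Golli transcripts, which start upstream and are not confined to myelinating cells. Which transcripts each probe set reads was not checked, as probe sequences were not used here.

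S100b, a calcium-binding protein of mature Schwann cells and satellite glia, was dim at this stage, with signals of 82.3 and 98.6 in knockout, 102.5 and 147 in heterozygote and 100.4 and 129.1 in wild-type ganglia. The knockout arrays lay just below the other genotypes, with the higher knockout signal 98.6 against the lowest other signal of 100.4. Its mean was under the filter value, equal to a signal of 124 on U74Av2, so it was not tested.

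**Figure D2:**
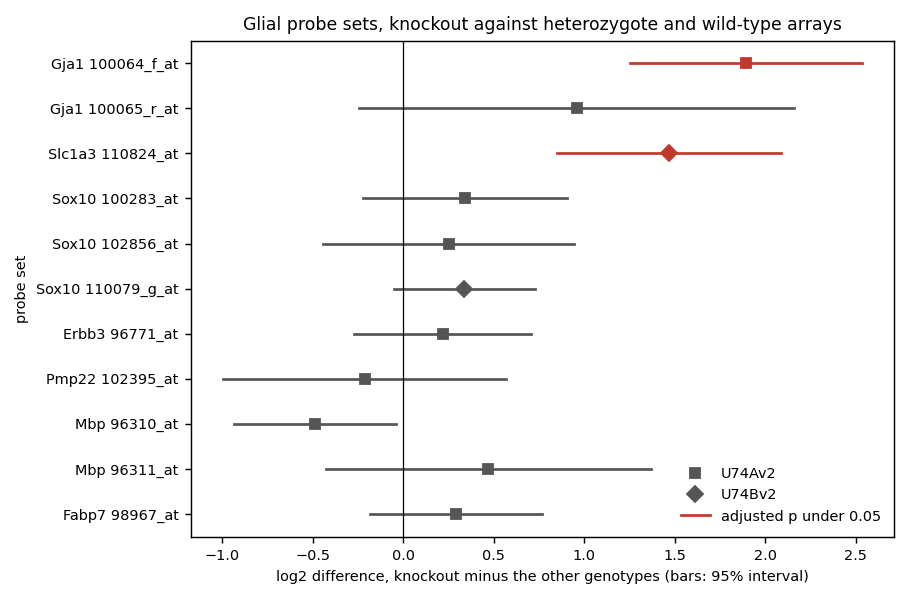
Log2 difference (horizontal axis) of knockout minus heterozygote and wild-type arrays together for the 11 tested glial probe sets, with 95% intervals; squares are U74Av2, diamonds U74Bv2 and red marks an adjusted p under 0.05. The brighter Gja1 probe set at 1.89 and Slc1a3 at 1.47 are called, and the 8 probe sets of Sox10, Erbb3, Pmp22, Mbp and Fabp7 lie between -0.49 and 0.47.

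Counted over probe sets, 1 of 9 glial probe sets tested on U74Av2 was called higher in knockout than in the other genotypes and 0 were called lower, where 0.295% of all tested probe sets were called higher and 0.577% lower. On U74Bv2, 1 of 2 was called higher and 0 lower, where 0.967% of all were called higher and 1.96% lower. That 1 is Slc1a3, which entered the test only through the knockout arrays, and with no filter 0 were called, so nothing is read from this share. These shares rest on single probe sets of genes that were picked with earlier results known. The median difference of the 9 U74Av2 probe sets was 0.29, beside 0.02 over all tested probe sets. By unadjusted p under 0.05 the counts were 2 of 9 on U74Av2, where 7.92% of all had such a p, and 1 of 2 on U74Bv2, where 12.3% did. The 1 on U74Bv2 is again Slc1a3, with the same limit. Without the Gja1 probe sets the U74Av2 median was 0.25 over the other 7.

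Against a single genotype limma called 0 glial probe sets. Against wild-type on U74Av2, 2 of 9 had an unadjusted p under 0.05, where 0.255% of all probe sets were called and 5.11% had such a p. Against heterozygotes there was 1 of 9, where 0.188% were called and 5.25% had such a p. On U74Bv2 it was 1 of 2 against wild-type (1.4% called, 11.2% at that p) and 1 of 2 against heterozygotes (1.71% called, 9.67% at that p). The 1 is Slc1a3 in both, which entered the test only through its knockout arrays, so nothing is read from these shares. Heterozygote minus wild-type gave 0 called glial probe sets and 0 with an unadjusted p under 0.05 on either array type. Over all probe sets limma called 0 in this comparison too, with 0.698% and 3.8% at an unadjusted p under 0.05.

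Lack of overlap was common among all probe sets. On U74Av2 the knockout arrays lay above all others in 8.53% of tested probe sets and below them in 7.66%. Among the glial probe sets tested there, the brighter Gja1 probe set lay above and the dimmer Mbp probe set below. On U74Bv2 both tested members, Slc1a3 and Sox10, lay above, where 14.9% of all tested probe sets did. Slc1a3 was tested only because its knockout signals were high, so nothing is read from its place. The order of the arrays by itself thus sets Sox10 and Mbp little apart from other transcripts.

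**Figure D3:**
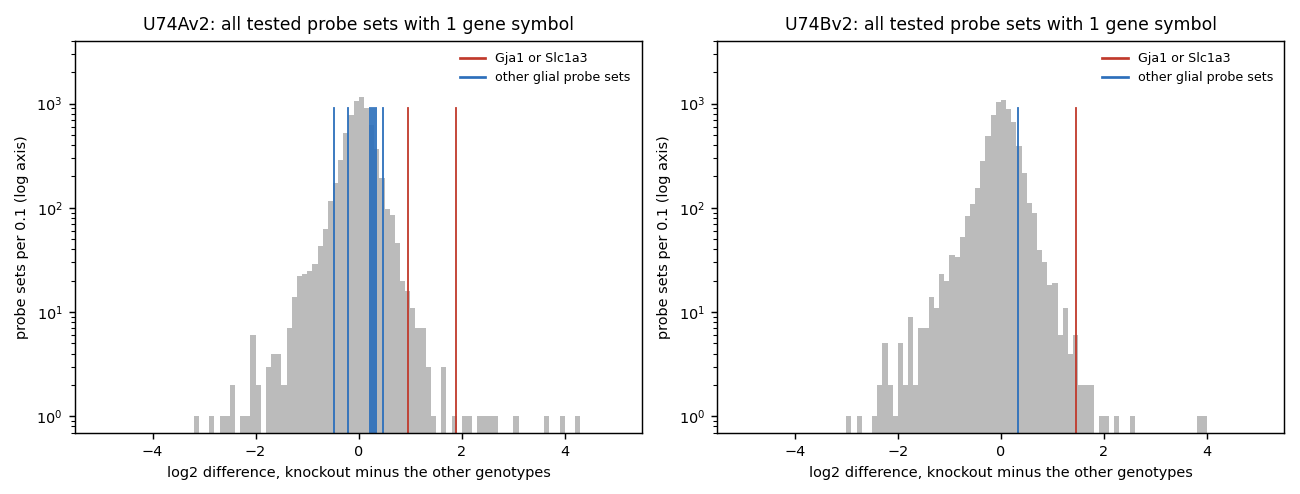
Log2 difference of knockout minus the other genotypes (horizontal axis) for all tested probe sets with 1 gene symbol, as counts per bin of 0.1 on a log axis, U74Av2 on the left and U74Bv2 on the right. Vertical lines mark the glial probe sets. The red lines are Gja1 (0.96 and 1.89) and Slc1a3 (1.47), in the upper tail. The blue lines of the other glial probe sets lie between -0.49 and 0.47. These ends are the 2 Mbp probe sets, at ranks 7034 and 395 from the top of 7453 on U74Av2.

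Wider lists of the same lineage held few calls. Of 10 tested Schwann lineage and neural crest genes on U74Av2 none was called against the other genotypes, with a median difference of 0.16 beside 0.02 over all. The differences of 9 of the 10 were positive, and the summed signal of the list was 12149 to 12621 in knockout, 10412 to 10838 in heterozygote and 11131 to 11248 in wild-type ganglia, with knockout above both. On U74Bv2 the sums of this list overlapped, at 26093 to 28904 in knockout, 27214 to 28217 in heterozygote and 27624 in the wild-type array. After Sox10 and Erbb3 the brightest was Sox2, a factor of glial precursors, at 0.09 ± 0.34 SE from a probe set of relaxed design. Of 7 such genes on U74Bv2 (median 0.19) the low-affinity neurotrophin receptor Ngfr fell and 6 did not pass. There 1.96% of all tested probe sets were called lower. Ngfr had signals of 1106.8 and 1054.6 in knockout, 3654.5 and 2780.8 in heterozygote and 2744.5 in wild-type ganglia (log2 -1.45 ± 0.16 SE, limma adjusted p = 0.00148). Ngfr is carried by sensory neurons as well as by Schwann cell precursors. On U74Bv2 both knockout arrays lay above all others for Ednrb, Sox10, Zeb2 and Sox9, and below them for Ngfr and L1cam. Itga4 overlapped. Over all tested probe sets there, 14.9% lay above and 13.4% below.

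Of 7 myelin genes on U74Av2 none was called, with 4 positive and 3 negative differences (median 0.35). Mbp enters this median by its brighter probe set, at 0.47, while its dimmer probe set stood at -0.49. Beside Mbp and Pmp22 the brightest was Mag, an adhesion protein of myelinating glia, at -0.27 ± 0.24 SE from a probe set of relaxed design. Of 2 on U74Bv2, the adhesion protein Nfasc at 0.41 ± 0.14 SE and the lipid hydroxylase Fa2h at 0.10 ± 0.14 SE, none was called. Of 15 satellite glia and astrocyte-type genes on U74Av2 Gja1 alone was called (median 0.12), and of 7 on U74Bv2 Slc1a3 alone, which is tested there only through its knockout signals (median 0.46 with it, beside 0.02 over all). The differences of 6 of these 7, Slc1a3 among them, were positive. Of all tested probe sets, 0.295% were called higher on U74Av2 and 0.967% on U74Bv2. Beside Slc1a3, both knockout arrays lay above all others for Ttyh1, Ntrk2, Aqp4 and Slc1a2, while Cspg5 and Glul overlapped. Over all tested probe sets there, 14.9% lay above. The summed signal of the satellite glia list, which holds Gja1 and Fabp7, was 30353 to 30793 in knockout, 25562 to 27100 in heterozygote and 22941 to 25085 in wild-type ganglia on U74Av2. On U74Bv2, where Slc1a3 was the dimmest of the 7 tested genes of the list, it was 9369 to 10186 in knockout, 7763 to 8298 in heterozygote and 7953 in wild-type ganglia. Knockout lay above both on either array type. Sums of the myelin list overlapped on U74Av2, at 2079 to 3182 in knockout, 1992 to 2584 in heterozygote and 2078 to 2557 in wild-type ganglia, and on U74Bv2 they were 4196 to 5068 in knockout, 3705 to 3977 in heterozygote and 3740 in wild-type ganglia. A sum is carried by its brightest genes, and no sum was tested.

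Relatives of the called members did not move with them past the test. Of 4 connexins on U74Av2, Gja1 was called and Gja5, Gjb5 and Gjb2 stood at 0.30 ± 0.31 SE, 0.26 ± 0.27 SE and 0.19 ± 0.20 SE. There 0.295% of all tested probe sets were called higher. The channel protein Panx1, tested on U74Bv2, stood at -0.04 ± 0.14 SE. Of 5 glutamate transporter and glutamine cycle genes on U74Av2 none was called (median -0.28), among them the neutral amino acid transporter Slc1a4 at -0.33 ± 0.16 SE, the glutamine carrier Slc38a2 at -0.25 ± 0.44 SE and glutamine synthetase, Glul, at 0.33 ± 0.35 SE from a probe set of relaxed design. Of 5 on U74Bv2, where 0.967% of all tested probe sets were called higher, Slc1a3 was called, with the same limit, and 4 were not. These were the glutamate transporter Slc1a2 at 0.68 ± 0.20 SE (limma adjusted p = 0.149), Slc38a1 at 0.13 ± 0.15 SE, Glul at 0.09 ± 0.34 SE and Slc38a2 at -0.20 ± 0.22 SE.

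Of 7 neuregulin signalling genes on U74Av2 the adaptor Shc1 fell and 6, among them Erbb3, did not pass. On that array type 0.577% of all tested probe sets were called lower. Shc1 had signals of 272.5 and 291.7 in knockout, 904.6 and 905.7 in heterozygote and 1079.1 and 1139.5 in wild-type ganglia (log2 -1.66 ± 0.17 SE, limma adjusted p = 0.00415). Shc1 serves many receptor kinases. Of 3 genes on U74Bv2 none was called, with the protease Bace1, which cleaves neuregulin, at -0.08 ± 0.19 SE, the ligand Nrg4 at -0.58 ± 0.30 SE and the EGF family ligand Hbegf at 0.53 ± 0.24 SE. Of 7 Notch pathway genes on U74Av2 (median -0.09) and 2 on U74Bv2 none was called, with the receptor Notch1 at 0.28 ± 0.19 SE, its target Hey1 at -0.13 ± 0.20 SE, the receptor Notch3 at -0.09 ± 0.22 SE, the ligand Jag1 at 0.31 ± 0.17 SE and the DNA-binding partner Rbpj at 0.12 ± 0.13 SE.

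**Figure D4:**
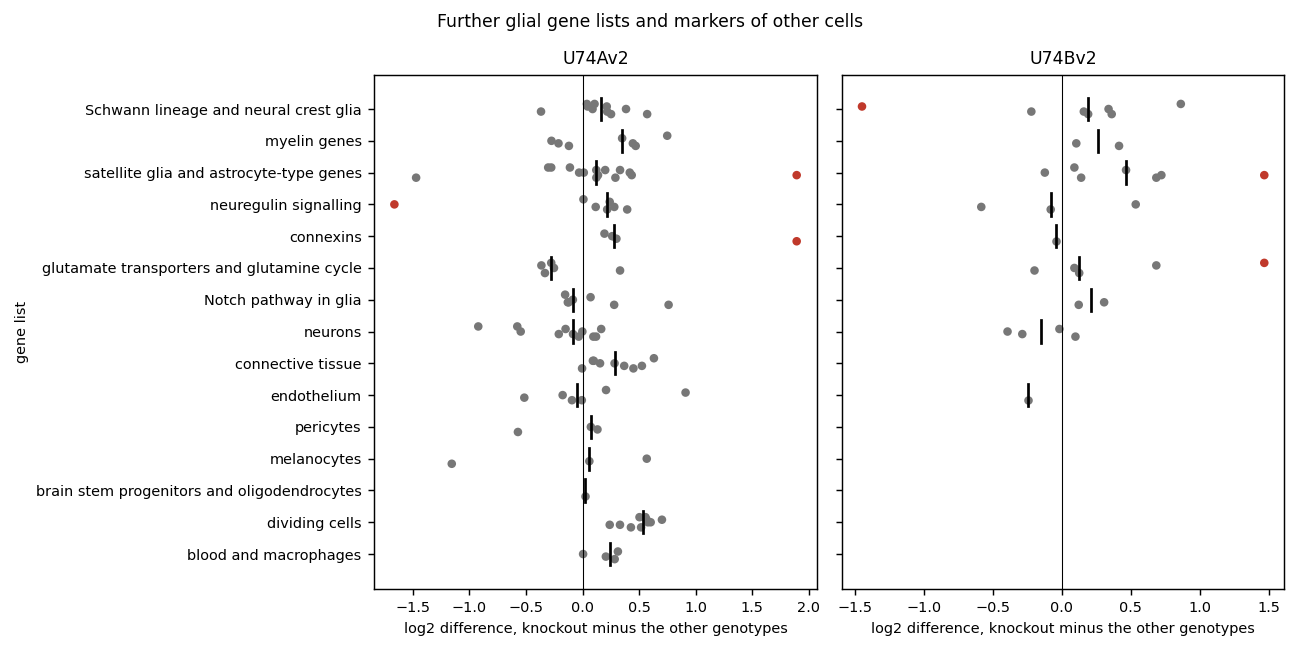
Log2 difference of knockout minus the other genotypes (horizontal axis) for each tested gene of 7 glial lists and 8 marker lists of other cells, with the brightest probe set standing for a gene; vertical bars are list medians and red points have an adjusted p under 0.05. Red points are Gja1 and Slc1a3, each in more than 1 list, Ngfr and Shc1.

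Markers of other cells were measured in the same arrays, since astrocyte-type genes are not confined to ganglion glia. None was called against the other genotypes on either array type. All 10 tested markers of dividing cells on U74Av2 had positive differences, with a median of 0.54, and their summed signal was 7806 to 8463 in knockout, 4791 to 6392 in heterozygote and 5478 to 6274 in wild-type ganglia. Connective tissue markers had positive differences in 8 of 9, with a median of 0.28 and summed signals of 12961 to 14345 in knockout, 11331 to 11519 in heterozygote and 10191 to 11592 in wild-type ganglia. Both sums, like the Gja1 signal, were higher in both knockout arrays than in all others, though no gene of either list passed, and their part in the Gja1 difference was not tested. Whether Gja1 and Slc1a3 differed from Sox10, Erbb3 or the myelin genes in their response was not tested either.

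Summed signals of 4 listed genes for brain stem progenitors and oligodendrocytes overlapped between genotypes on U74Av2, at 624 to 856 in knockout, 700 to 782 in heterozygote and 580 to 750 in wild-type ganglia, with 1 gene tested. Neuronal markers, 11 on U74Av2, summed to 74504 to 79660 in knockout, 82433 to 100954 in heterozygote and 74495 to 75935 in wild-type ganglia. Their median difference was -0.08, and that of 4 on U74Bv2 was -0.15. On U74Av2, 3 of the 11 differences were positive and 8 negative. Both knockout arrays lay below all others for Prph (-0.92), Elavl4 (-0.58) and Nefl (-0.55), as in 7.66% of all tested probe sets there. Endothelial markers had a median of -0.05 over 6 genes, pericyte markers 0.07 over 3 (with 5 genes summing to 1162 to 1196 in knockout, 1403 to 1553 in heterozygote and 1573 to 1584 in wild-type ganglia), melanocyte markers 0.06 over 3 and blood and macrophage markers 0.25 over 4. No marker signal was 0 on any array. U74Bv2 held no marker of dividing cells and tested none of connective tissue, so these lists give no value beside Slc1a3.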

How the data were processed

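Trigeminal ganglion RNA was measured on 6 U74Av2 and 5 U74Bv2 arrays. The authors deposited intensities, 1 linear MAS5 signal for each probe set, per the submitters' processing notes, which name MAS5 with no version or scaling target. The 2% trimmed means lay between 500.26 and 500.29 (U74Av2) and between 497.61 and 498.38 (U74Bv2), so no further scaling was applied. The tables held 12488 and 12411 probe sets, of which 10855 and 10581 had 1 gene symbol in the platform annotation, 396 and 178 several and 1237 and 1652 none. Through Entrez identifiers 10839 and 10550 matched a RefSeq table of GRCm38.p6, and 0 symbols changed. Probe sets with several symbols were not named.

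A pseudocount of 0.1 of the average trimmed mean (50.0 on U74Av2, 49.8 on U74Bv2) was added before log2, so differences and folds of dim probe sets come out too small. The 66 controls on U74Av2 and probe sets with a mean at or below the 40th percentile were left out, leaving 7453 and 7446. R 4.3.3 with limma 3.58.1 fitted genotype over all arrays of a type (eBayes with an intensity trend), and a further fit set knockout against all other arrays. Adjusted p-values are Benjamini-Hochberg over all probe sets of a comparison and array type, two-sided, called under 0.05. On U74Bv2 the lone wild-type array was assumed to vary like the other genotypes. The number of arrays limits the precision. Plots used Python 3.11.15 with matplotlib 3.10.9.

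The members and lists were chosen with earlier results of these data known. Members were always named. From each of 7 further lists, called genes up to 6 were named, or otherwise the brightest 3, with the brightest tested probe set standing for a gene. The alternatives tried were other pseudocounts and filters, quantile normalization, no intensity trend, the replicate number as a block and leaving out each array.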

Additional observations from a re-analysis of the deposited data

How the results depend on the processing

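Gja1 (brighter probe set) kept its sign in all 13 alternatives of each knockout comparison. Against the other genotypes its difference ran from 1.47 to 2.31 and it passed in 10, with limma adjusted p-values from 9.69e-05 to 0.133. Slc1a3 kept its sign in the 9 alternatives that could test it there (0.95 to 1.71) and passed in 6 (limma adjusted p 0.0164 to 0.0751). All 9 kept both knockout arrays, since without either the Slc1a3 probe set fell below the filter. Nothing is therefore read from its kept sign. The number of glial probe sets called against the other genotypes lay between 0 and 1 on both array types when 1 array was left out, against 1 each with all arrays, and was 0 on U74Bv2 with no filter and also with a filter at the 60th percentile, which left Slc1a3 untested. Against heterozygotes on U74Bv2 it lay between 0 and 1 without 1 array, against 0.

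Replicate numbers 1 and 2 were shared between genotypes, but no label says what they stand for. Deviations of same-numbered arrays from their genotype means correlated at 0.533 to 0.619 on U74Av2 and 0.103 on U74Bv2, from 2 numbers only. With the number as a block, 1 glial probe set was called against wild-type (Gja1, 1.86, limma adjusted p = 0.00180) and 1 against heterozygotes on U74Av2 (Gja1, 1.92, limma adjusted p = 0.00187), and 1 against heterozygotes on U74Bv2 (Slc1a3, 1.47, limma adjusted p = 0.00643), each against 0 without it. The block changed no other call of these genes.

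Of 544 differences recomputed under alternatives 35 changed sign, none of a called result, 34 of them when 1 array was left out. The other was Sox10 on U74Bv2 for heterozygote minus wild-type, at -0.13 with the block. The ranges without 1 array follow for those that turned, with brighter and dimmer naming a probe set. For knockout minus the other genotypes these were Sox10 dimmer (-0.035 to 0.72), Pmp22 (-0.71 to 0.28), Sox10 brighter (-0.14 to 0.65), Mbp brighter (-0.050 to 0.99) and Erbb3 (-0.045 to 0.48). For knockout minus wild-type these were Gja1 dimmer (-0.030 to 1.81), Pmp22 (-0.81 to 0.19), Sox10 brighter (-0.19 to 0.65), Mbp brighter (-0.016 to 1.02) and Erbb3 (-0.087 to 0.44). For knockout minus heterozygote these were Sox10 dimmer (-0.15 to 0.61), Pmp22 (-0.61 to 0.38), Sox10 brighter (-0.12 to 0.67), Mbp brighter (-0.090 to 0.96), Erbb3 (-0.0028 to 0.52) and Fabp7 (-0.039 to 0.31). For heterozygote minus wild-type these were Gja1 brighter (-0.38 to 0.26), Gja1 dimmer (-1.05 to 0.79), Pmp22 (-0.61 to 0.21), Sox10 brighter (-0.46 to 0.38), Mbp brighter (-0.46 to 0.59), Erbb3 (-0.30 to 0.13), Sox10 on U74Bv2 (-0.020 to 0.075) and Slc1a3 (-0.31 to 0.28).

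Calls over all probe sets moved too. On U74Av2 the 65 calls against the other genotypes became 266 with the block, 42 with the stricter filter and 17 to 42 without 1 array, the 19 against wild-type 130, 11 and 0 to 15, and the 14 against heterozygotes 129, 8 and 0 to 11. On U74Bv2 the 218 against the other genotypes became 112 to 202 without 1 array, the 104 against wild-type 216 with the block, 21 with no filter, 40 with no trend and 115 to 178 without 1 array, and the 127 against heterozygotes 317, 54, 81 and 130 to 188. For heterozygote minus wild-type there the 0 calls became 7 with the block and 0 to 10 without 1 array.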

Other observations

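Values of some further glial transcripts, chosen after they were seen, follow, and none passed. Apoe, a lipid carrier made by glia and macrophages, had signals of 405.1 and 1085.6 in knockout, 1403.5 and 2694.4 in heterozygote and 1857.1 and 2029.3 in wild-type ganglia on U74Av2, with both knockout arrays below all others (log2 -1.47 ± 0.37 SE against the other genotypes, limma adjusted p = 0.209). Ntrk2, the receptor of BDNF in neurons and, in truncated form, in glia, had 1230.3 and 1140.4 in knockout, 671.8 and 828.8 in heterozygote and 613.3 in the wild-type array on U74Bv2 (0.72 ± 0.16 SE, limma adjusted p = 0.0570). Zeb2, of the Schwann lineage and neural crest list, had mean signals of 1047.8 in knockout and 511.85 in heterozygote ganglia on U74Bv2. The wild-type array read 560.1 (0.86 ± 0.24 SE, limma adjusted p = 0.124). The endothelin receptor Ednrb of neural crest cells was higher in both knockout arrays on both array types, at 0.57 ± 0.23 SE on U74Av2 (limma adjusted p = 0.554) and 0.19 ± 0.17 SE on U74Bv2 (limma adjusted p = 0.746). Over all tested probe sets, both knockout arrays lay above all others in 8.53% on U74Av2 and 14.9% on U74Bv2. They lay below in 7.66% on U74Av2, so lack of overlap by itself was common. Slc1a2, the other main glial glutamate transporter, stood at 0.68 ± 0.20 SE on U74Bv2 (limma adjusted p = 0.149) and at -0.28 ± 0.53 SE on U74Av2, where its signals were lower.

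By Pearson correlation of log2 signals over the 6 U74Av2 arrays, the genes most like Gja1 among 5662 were Eps15 (0.99), Cdo1 (0.99) and Dusp6 (0.99), with knockout minus other differences of 0.56, 0.88 and 1.02. The genes most like the brighter Mbp probe set were Kdelr3, Sfpq and Ddx17, with differences of 0.28, 0.21 and 0.15. The signals of Gja1 and Mbp differ by array number in every genotype, so these likenesses are over array number as well as genotype. Genes picked by likeness to Gja1 were bound to share the sign of its knockout difference, so nothing is read from that sign. Likeness for Slc1a3 and Sox10, over 5 arrays, is not given.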
